A study of Mus musculus with 12 samples.

Results

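The genes described here are *Mt1* and *Mt2*, which encode the metallothioneins of the liver, and *Mtf1*, which encodes the transcription factor that senses zinc for them. They were chosen by name from the read count table of a mouse liver RNA-seq study, as 3 of 54838 genes. At least 1 read was counted for 26191 of them. The study asked how zinc taken by mouth and a glucocorticoid act, alone and together, on the transcriptome. Its 12 wild-type C57BL/6J mice formed 4 groups of 3. They drank plain water or 25 mM ZnSO4 for 7 days, were then injected into the peritoneum with PBS or with 200 µg of Dex (dexamethasone, a glucocorticoid drug), and were killed 2 h later. The groups are called water-PBS (the control), zinc-PBS, water-Dex and zinc-Dex. The labels used here give no age or sex, and each library came from 1 mouse.

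Metallothioneins are small proteins rich in cysteine that bind zinc and copper, and the liver is a main site of their production. When free zinc rises, MTF1 binds it through its zinc fingers, moves to the nucleus and activates genes that carry metal response elements, among them *Mt1*, *Mt2* and the zinc exporter gene *Slc30a1*. Glucocorticoids, acting through their receptor, and cytokines of the acute phase also induce hepatic metallothionein genes. MTF1 itself is known to be controlled mostly at the level of the protein, by metal binding and localization.

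*Mt2* (ENSMUSG00000031762) and *Mt1* (ENSMUSG00000031765) lie next to each other on the plus strand of chromosome 8, and *Mtf1* (ENSMUSG00000028890) lies on the plus strand of chromosome 4. In the GENCODE annotation of GRCm38, the assembly also called mm10, *Mt2* spans 94172664 to 94173568 and *Mt1* spans 94179082 to 94180327, so that their starts are 6418 bases apart. *Mtf1* spans 124802104 to 124849800 on chromosome 4. The sequences just upstream of the RefSeq starts are shown for a search of the metal response element, the motif MTF1 is known to bind. They come from RefSeq (GRCm38.p6) at chr8:94172368-94172617 for *Mt2*, chr8:94178839-94179081 for *Mt1* and chr4:124802299-124802548 for *Mtf1*, all on the plus strand. The *Mt1* stretch stops 7 bases short of its RefSeq start, at the first annotated exon base. Capitals mark the core of the metal response element, searched as TGCACNC and TGCGCNC on both strands.
Mt2: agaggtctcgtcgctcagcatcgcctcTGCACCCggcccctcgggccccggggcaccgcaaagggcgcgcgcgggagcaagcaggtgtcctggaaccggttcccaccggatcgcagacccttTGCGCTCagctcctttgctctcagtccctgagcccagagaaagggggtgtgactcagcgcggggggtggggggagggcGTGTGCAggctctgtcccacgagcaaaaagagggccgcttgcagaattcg
Mt1: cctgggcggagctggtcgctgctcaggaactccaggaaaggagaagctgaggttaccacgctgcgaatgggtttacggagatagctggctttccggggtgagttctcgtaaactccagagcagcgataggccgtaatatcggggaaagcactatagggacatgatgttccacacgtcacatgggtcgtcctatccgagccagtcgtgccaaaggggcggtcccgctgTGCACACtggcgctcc
Mtf1: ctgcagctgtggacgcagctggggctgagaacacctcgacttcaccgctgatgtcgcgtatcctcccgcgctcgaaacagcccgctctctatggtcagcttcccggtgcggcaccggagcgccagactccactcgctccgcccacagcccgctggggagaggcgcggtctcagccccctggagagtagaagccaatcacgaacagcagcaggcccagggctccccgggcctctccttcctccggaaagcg
The *Mt2* stretch held 3 cores, 223, 128 and 50 bases before the RefSeq start, the last of them on the opposite strand. The *Mt1* stretch held 1 core, 23 bases before the start. The *Mtf1* stretch held 0 cores. Of 32544 mouse promoters with the 250 bases before their start searched in the same way, 21.5% held at least 1 core and 1.28% held at least 3. Cores were also found downstream of the start, with 4 in the first exon of the main *Mt1* transcript and 3 in that of *Mt2*. Other annotated transcripts start at 94179211 and 94179241 for *Mt1* and at 94172860 for *Mt2*. All of these first-exon cores lie before those starts, so the number upstream depends on the start used. *Mt2* also held a match to the antioxidant response element core, TGACNNNGC, 79 bases before its start, a motif present in 10.2% of promoters. The first exon of the main *Mt1* transcript held a match too, 52 bases after the RefSeq start and before the other *Mt1* starts. AGAACA, a single arm of the glucocorticoid response element, was found in 16% of promoters, and among these 3 genes in that of *Mtf1*, 223 bases before its start. Neither AGAACA nor the E-box CACGTG, which 6.03% of promoters held, was found in the *Mt1* or *Mt2* stretch. These matches describe letters within the windows searched and say nothing of elements further away.

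Between 9091152 and 12303527 reads were counted per library. Values are given as normalized read counts, which are raw counts divided by the size factor of the library. All 8 hepatocyte markers looked at were present in every library, with a summed level of 1259068 to 1869441 normalized counts. The library of zinc-PBS replicate 1 stood apart in acute phase genes, since it was the highest of the 3 zinc-PBS libraries in 12 of 12 of them. Serum amyloid *Saa1*, for example, was 2865 in that mouse against 250 and 236 in the others. The zinc effects and interactions of *Mt1* and *Mt2* and the values built on them are therefore also given without it. Among the controls, water-PBS replicate 2 was the highest in most of these genes, with *Saa1* at 1002 against 266.7 and 191.1. The zinc effects and interactions are given without that mouse too.

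*Mt1* RNA was scarce in control livers and became abundant after either treatment. The normalized count was 209, 402 and 435 in the 3 water-PBS mice. It was 6212, 3427 and 5680 in the zinc-PBS mice, so that the lowest of these was still far above every control. In the water-Dex mice it was 7593, 7595 and 7486, and these livers were nearly identical to each other. In the zinc-Dex mice it was 15077, 13276 and 12367. None of the 4 groups overlapped another, and the order from low to high was water-PBS, zinc-PBS, water-Dex, zinc-Dex. The share of all genes with no overlap among the 4 groups was not computed, and shares for some pairs of groups are given below. The means were 349 ± 122, 5106 ± 1479, 7558 ± 62.4 and 13573 ± 1379 (SD, n = 3 each) in that order. The spread in proportion to the mean was widest in water-PBS (coefficient of variation 35.0%) and narrowest in water-Dex (0.826%). Ranked by count among all genes of a library, *Mt1* moved from places 3185 to 5522 in water-PBS to places 101 to 114 in zinc-Dex.

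*Mt2* followed the same order from a lower start. It had only 13, 49 and 23 raw counts in the water-PBS livers, or 13.7, 44.6 and 25.3 normalized counts, so its base level is the least precise value among the members. The normalized count was 1412, 700.2 and 1394 in zinc-PBS mice. It was 2440, 2236 and 2517 in water-Dex mice and 4242, 3878 and 3496 in zinc-Dex mice. As for *Mt1*, no group overlapped another. The means were 27.8 ± 15.6, 1169 ± 406, 2397 ± 145 and 3872 ± 373 (SD, n = 3 each) in the order water-PBS, zinc-PBS, water-Dex, zinc-Dex. The third zinc-PBS mouse and the first were close for both genes, and the second, replicate 2, was the lowest of its group for both.

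*Mt1* and *Mt2* together took 0.0037% of all reads counted in water-PBS livers, 0.0606% in zinc-PBS, 0.0850% in water-Dex and 0.144% in zinc-Dex. Per kilobase of the main transcript, which is the scale on which different genes can be compared, the mean level in water-PBS was 635 normalized counts for *Mt1*, 54.5 for *Mt2* and 26.7 for *Mtf1*. In zinc-Dex the same levels per kilobase were 24724, 7577 and 28.9. In the counts of control livers *Mt2* thus stood closer to its regulator than to *Mt1*, and in the treated groups it stood far above *Mtf1*. *Mt2* shares 73.5% of its exon bases with a gene on the other strand, and reads there may be missing from its counts. The study's own liver values for zinc and plain water give more *Mt2* per *Mt1* than these counts. The share of reads and the place of *Mt2* between *Mtf1* and *Mt1* are therefore those of the deposited counts.

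**Figure D1:**
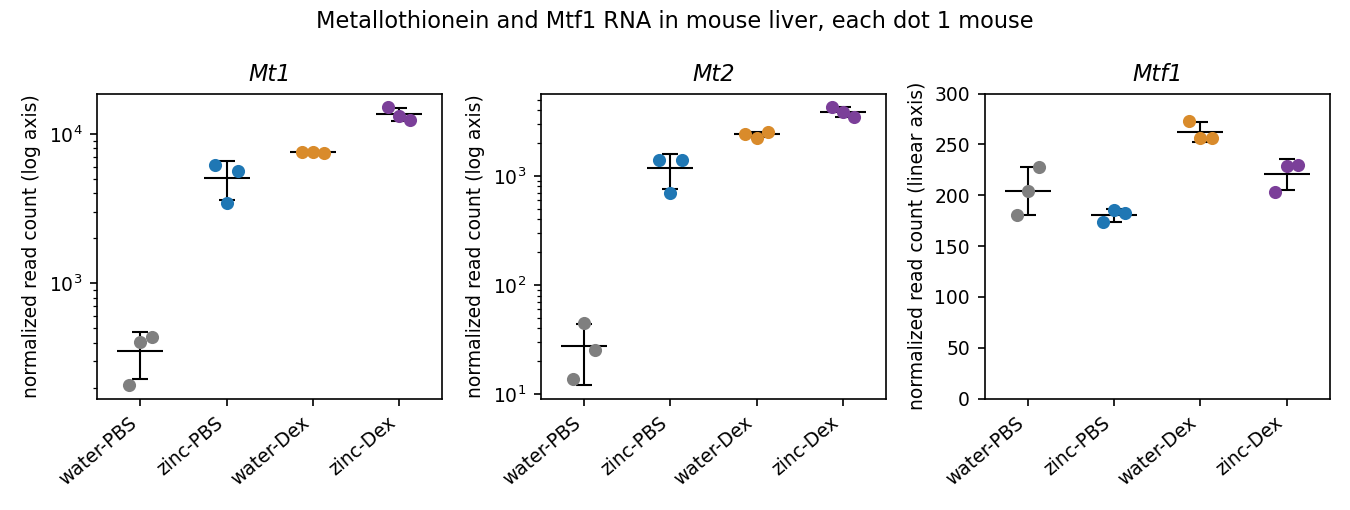
Normalized read count (vertical axis) of *Mt1* and *Mt2* on a log axis and of *Mtf1* on a linear axis from 0, by group (horizontal axis). Each dot is 1 mouse, the wide line is the mean and the bars are ± 1 SD (n = 3). *Mt1* and *Mt2* rise in steps from water-PBS to zinc-Dex with no overlap between groups, while all *Mtf1* values lie between 173 and 273.

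Zinc in the drinking water alone raised both metallothionein genes, and they were among the few genes to respond. *Mt1* was 14.6-fold higher in zinc-PBS than in water-PBS, a log2 fold change of 3.87 ± 0.228 (SE, DESeq2, adjusted p = 1.2e-60). *Mt2* was 41.6-fold higher, at 5.38 ± 0.379 (adjusted p = 5.6e-42). A gene was called changed if its adjusted p was under 0.05 and its log2 fold change exceeded 0.8 in either direction. Of the 12307 genes tested in this comparison, 17 met both, or 0.138%. Among these 17 genes *Mt2* had the largest fold change and *Mt1* the third largest, and by adjusted p they held the first and second places. The groups did not overlap for either gene, which held in one direction or the other for 11.9% of the genes tested. Without zinc-PBS replicate 1 the log2 fold changes were 3.71 for *Mt1* and 5.22 for *Mt2*, and without zinc-PBS replicate 2, the lowest, they were 4.09 and 5.62. Without water-PBS replicate 2 they were 3.988 and 5.915. The p-values measure the spread between mice, with 1 dispersion per gene estimated over all 12 libraries. With only the libraries compared, the SE was 0.404 for *Mt1* and 0.540 for *Mt2* and the adjusted p 3.3e-18 and 1.3e-19 (DESeq2).

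Dex alone raised both genes within 2 h. *Mt1* was 21.7-fold higher in water-Dex than in water-PBS (log2 4.44 ± 0.228, adjusted p = 1.7e-81, DESeq2) and *Mt2* was 85.4-fold higher (log2 6.42 ± 0.379, adjusted p = 9.7e-62). Dex changed many genes, 1376 of 14221 tested or 9.68%, and among them *Mt2* had the 5th and *Mt1* the 26th largest change. In mice that had drunk zinc, the step from PBS to Dex was smaller. *Mt1* was 2.66-fold higher in zinc-Dex than in zinc-PBS (log2 1.41 ± 0.224, adjusted p = 6.8e-09) and *Mt2* was 3.31-fold higher (log2 1.73 ± 0.344, adjusted p = 8.1e-06). There 1516 genes were called, 9.68% of the 15657 tested, and the metallothionein genes held places 471 (*Mt2*) and 696 (*Mt1*). These Dex comparisons share no library with each other. Without water-PBS replicate 2 the log2 Dex effects on plain water were 4.554 (*Mt1*) and 6.952 (*Mt2*). They were 4.175 and 6.082 without water-PBS replicate 1. On zinc the Dex effects were 1.577 and 1.888 without zinc-PBS replicate 1, and 1.191 and 1.464 without zinc-PBS replicate 2.

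Zinc added to Dex raised *Mt1* by a modest factor, and the call depended on the processing and on the libraries used. *Mt1* was 1.8-fold higher in zinc-Dex than in water-Dex, a log2 fold change of 0.84 ± 0.223 (DESeq2, adjusted p = 0.0189), just over the fold threshold. It was called among 60 of 12786 genes, or 0.469%, and held place 52 of these by size. All 3 zinc-Dex mice were above all 3 water-Dex mice, as was so in one direction or the other for 20% of genes tested. The log2 fold change stayed between 0.76 and 0.91 under 20 alternatives of processing, but 12 of them ended the call. Among these were edgeR (adjusted p = 0.13) and every fit without 1 of the water-Dex or zinc-Dex mice. Without zinc-Dex replicate 1 the log2 fold change, at 0.763, was also under the fold threshold. With only the water-Dex and zinc-Dex libraries in the fit, the SE fell to 0.0968 and the adjusted p to 1.5e-14 (DESeq2), and without water-PBS replicate 1 the adjusted p was 1.9e-04. *Mt2* was 1.61-fold higher, with a log2 fold change of 0.69 and a 95% interval of 0.02 to 1.37, and did not pass the test (adjusted p = 0.476, DESeq2). Its groups did not overlap either. The adjusted p of *Mt2* also turned on libraries outside the comparison, being 2.8e-08 with only the libraries compared, 1.5e-05 without zinc-PBS replicate 2 and 0.0479 without water-PBS replicate 1, at a log2 fold change of 0.69 each time, which is under the fold threshold.

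Against the untreated control, the mice given both had the highest levels. *Mt1* was 38.9-fold higher in zinc-Dex than in water-PBS (log2 5.28 ± 0.228, adjusted p = 8.6e-116, DESeq2) and *Mt2* was 138-fold higher (log2 7.11 ± 0.378, adjusted p = 5.6e-76). This comparison called 1596 of 14221 genes, or 11.2%, of which *Mt2* had the 5th and *Mt1* the 14th largest change. The 3 comparisons with water-PBS share its 3 control libraries, whose low and variable *Mt2* counts enter each of them.

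**Figure D2:**
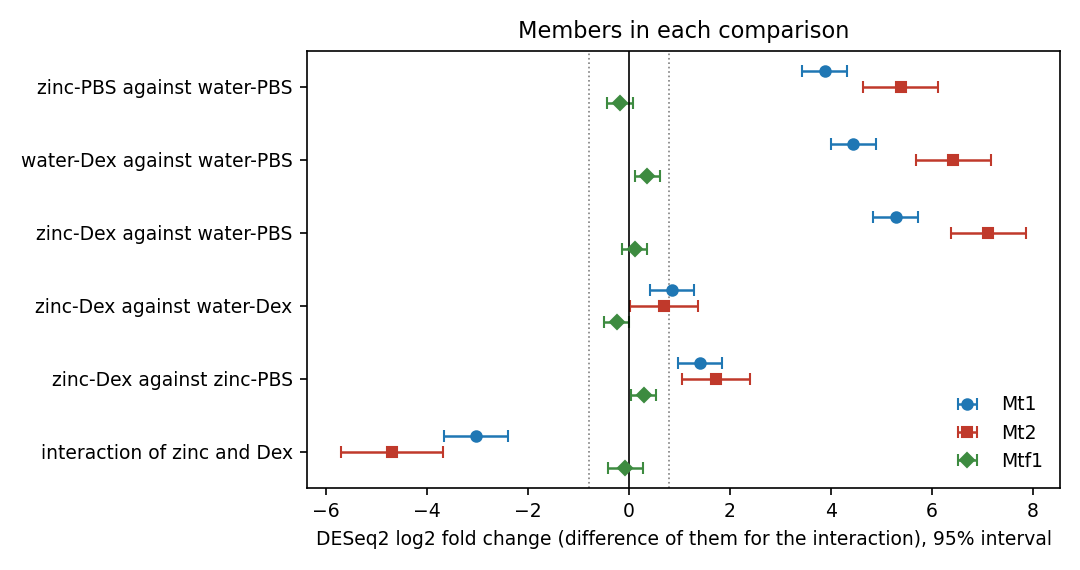
DESeq2 log2 fold change (horizontal axis) of *Mt1*, *Mt2* and *Mtf1* in each comparison (vertical axis), with 95% intervals. Dotted lines mark the fold threshold of 0.8 in both directions. For the interaction the value is the zinc effect in Dex-injected mice minus that in PBS-injected mice, which is -3.03 for *Mt1*, -4.69 for *Mt2* and -0.07 for *Mtf1*.

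Whether zinc and Dex together gave what each gave alone depended on the scale. In folds, the combination fell far short of the product of the single effects. The zinc effect in Dex-injected mice was smaller than in PBS-injected mice by a log2 interaction of -3.03 ± 0.319 for *Mt1* (adjusted p = 6.4e-17, DESeq2) and of -4.69 ± 0.512 for *Mt2* (adjusted p = 6.7e-16). Only 5 of 26185 genes, or 0.0191%, were called for an interaction, and *Mt2* and *Mt1* had the largest and second largest of these. Without zinc-PBS replicate 1 the interactions were -2.86 and -4.53, and without water-PBS replicate 2 they were -3.14 and -5.22.

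In normalized counts, however, the measured level was near the sum of the increments. Zinc added 4757.5 ± 856.6 (SE) *Mt1* counts in PBS-injected mice and 6015.2 ± 797.2 in Dex-injected mice. Dex added 7209.3 ± 79.2 counts on plain water and 8467.1 ± 1167.5 on zinc. The control level plus both single increments came to 12315.5 counts, and the measured zinc-Dex mean of 13573.2 was 110.2% of that sum, yet 12.3% of the product of the folds. For *Mt2*, zinc added 1140.9 ± 234.5 counts in PBS-injected and 1474.2 ± 231.1 in Dex-injected mice. The sum for *Mt2* was 3538.3, and the measured 3871.7 was 109.4% of it and 3.85% of the product. The excess over the sum was 1258 ± 1170 (SE) for *Mt1* and 333 ± 329 for *Mt2*, and no test was run on it. Leaving out single libraries moved it in both directions. It was 418 and 99.1 without zinc-PBS replicate 2, 506 and 149 without zinc-Dex replicate 1, 1811 and 455 without zinc-PBS replicate 1, and 1861 ± 1243 and 521 ± 308 without zinc-Dex replicate 3. Scaled by library totals in place of size factors, it was 18.3 ± 96.6 CPM for *Mt1* and 5.27 ± 27.7 CPM for *Mt2*, where CPM scales each library to the same total.

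**Figure D3:**
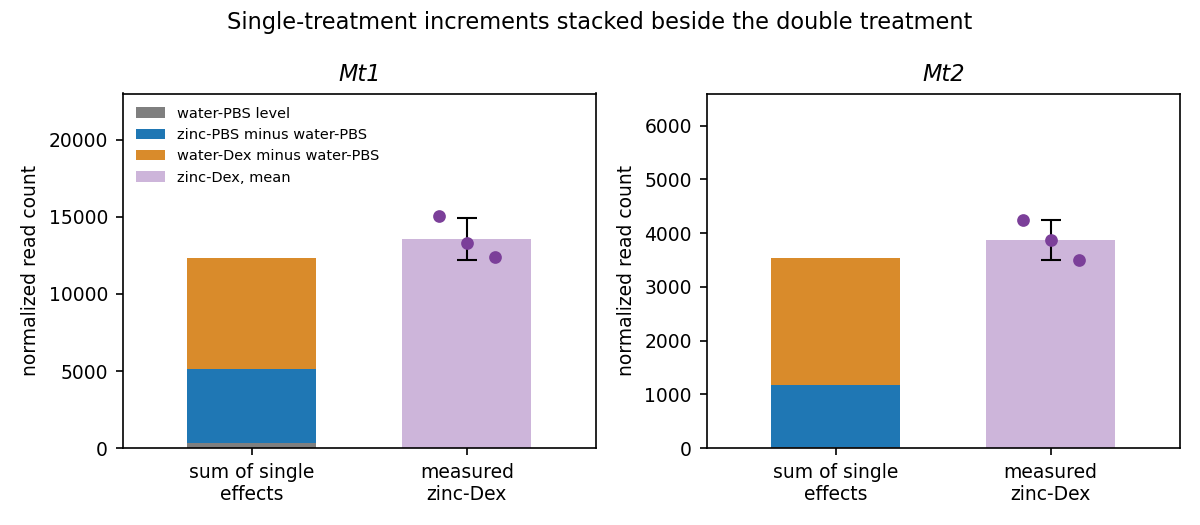
Normalized read count (vertical axes from 0) of *Mt1* and *Mt2*. The left bar stacks the water-PBS mean, the zinc increment measured without Dex and the Dex increment measured without zinc, and the right bar is the mean of the zinc-Dex mice with ± 1 SD and 1 dot per mouse (n = 3). The measured mean is 110.2% of the stack for *Mt1* and 109.4% for *Mt2*, and the stack of *Mt1* lies just under its lowest mouse.

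The balance between the 2 genes also shifted in the counts. The size of their ratio carries the limit of the *Mt2* counts given above. *Mt2* counts per *Mt1* count, a ratio within a library that needs no scaling between libraries, were 0.0653, 0.111 and 0.0581 in the water-PBS mice. In zinc-PBS mice they were 0.227, 0.204 and 0.246. Among the Dex-injected mice, those on plain water had 0.321, 0.294 and 0.336 and those on zinc had 0.281, 0.292 and 0.283. Every treated mouse thus had a higher share of *Mt2* than every control, and the zinc-PBS mice lay below all Dex-injected mice. Over both water types, Dex raised the ratio 2.32-fold (log2 difference 1.21, exact two-sided permutation test within water types, p = 0.005, the smallest that 400 arrangements can give). The Dex difference was 4.23-fold on plain water (log2 2.08) and 1.27-fold on zinc (log2 0.34), each with an exact permutation p of 0.1, and the larger of these rests on the low control counts. The zinc difference was 0.72 on the log2 scale and did not pass (exact permutation p = 0.1), and it was 0.71 without zinc-PBS replicate 1. It was 1.59 in PBS-injected and -0.15 in Dex-injected mice, each with an exact permutation p of 0.1, which is the smallest that 3 against 3 can give.

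**Figure D4:**
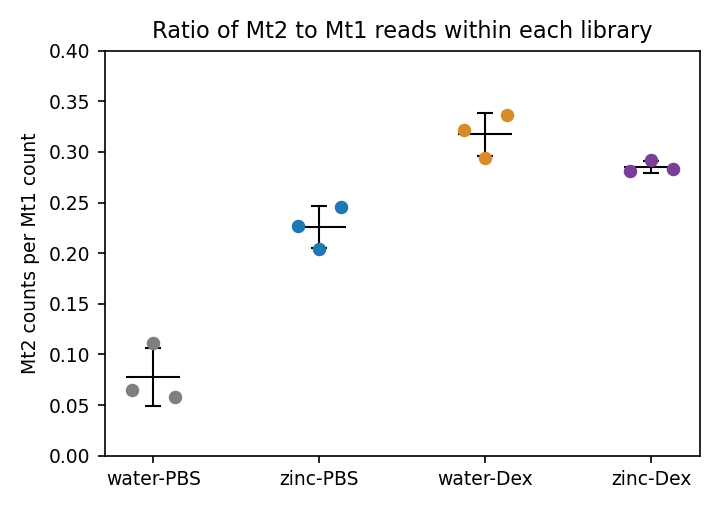
*Mt2* counts per *Mt1* count (vertical axis from 0) in each library, by group. Dots are mice, lines are means and bars ± 1 SD (n = 3). The means are 0.0781 in water-PBS, 0.226 in zinc-PBS, 0.317 in water-Dex and 0.285 in zinc-Dex.

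Within groups, as a description, in 9 of 12 libraries *Mt1* and *Mt2* lay on the same side of their group means, several of them by very little. Water-PBS replicate 1 was the lowest control mouse for both, at -0.67 (*Mt1*) and -0.86 (*Mt2*) from the group mean on the log2 scale. For *Mt1* and *Mtf1* the same held in 6 of 12 libraries.

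The 12 values of *Mtf1* RNA lay between 173 and 273 normalized counts, a narrow range beside those of its targets. The normalized count was 180.6, 203.9 and 227.3 in water-PBS mice and 173.3, 185.3 and 182.0 in zinc-PBS mice, which overlapped. The Dex-injected mice had 273.1, 256.3 and 256.3 on plain water and 203.1, 228.8 and 229.7 on zinc. The water-Dex mice were the highest 3 of the 12, and the share of genes with that pattern was not computed. The means were 204 ± 23.4, 180 ± 6.20, 262 ± 9.71 and 221 ± 15.1 (SD, n = 3 each).

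With zinc alone the log2 difference of *Mtf1* was -0.18, with a 95% interval of -0.43 to 0.07, and did not pass the test (adjusted p = 1, DESeq2). With Dex alone it was 1.29-fold higher, a log2 fold change of 0.36 ± 0.125 with an adjusted p of 0.0219 (DESeq2), which is under the fold threshold of 0.8, so it was not called. Its adjusted p was 0.05 or more in 8 of 21 alternatives, up to 0.155 without water-PBS replicate 1, among them the fit of only the libraries compared (0.0944), the replicate block (0.0758) and the counts with the antisense gene added (log2 0.24, adjusted p = 0.138, DESeq2). At an adjusted p under 0.05 without a fold threshold, 21.6% of genes passed in that comparison. Every water-Dex mouse was above every water-PBS mouse, as was the case for 19.8% of the genes tested. In zinc-treated mice the Dex difference was 0.29 (adjusted p = 0.0922, DESeq2), again with all Dex-injected mice above, as for 19.5% of genes. There 20.1% of genes had an adjusted p under 0.05, and *Mtf1* was not among them. The zinc-Dex mice all lay below the water-Dex mice (log2 -0.25, interval -0.49 to -0.003, adjusted p = 0.486, DESeq2). These groups did not overlap, in one direction or the other, for 20% of genes tested. Zinc-Dex and water-PBS overlapped (0.11, adjusted p = 0.584), and the interaction was -0.07 with an interval of -0.42 to 0.28 (adjusted p = 0.999). A change of *Mtf1* RNA as large as that of *Mt1* or *Mt2* therefore lay outside the interval in each comparison.

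The other metallothionein genes of the cluster were at or near 0 counts. *Mt3*, known from the brain, had 0 counts in all 12 libraries, which allows up to 3 counts per library. *Mt4*, known from stratified epithelia, had 1 count in zinc-PBS replicate 2 and 0 elsewhere.

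*Mt2* shares most of its exon bases with a gene on the other strand. The antisense gene *Gm45774*, on the minus strand at 94170748 to 94173412, covers 432 of the 588 exon bases of *Mt2* (73.5%), and whether reads were counted by strand was not given in the sources used here. *Gm45774* had 2, 0 and 0 raw counts in water-PBS mice and 35, 11 and 14 in zinc-PBS mice. It had 25, 31 and 32 in water-Dex mice and 39, 51 and 55 in zinc-Dex mice, the same order of groups as *Mt2*. It was called higher in zinc-PBS (adjusted p = 0.00754), water-Dex (6.9e-06) and zinc-Dex (1.4e-07) than in water-PBS, and in zinc-Dex than in zinc-PBS (log2 1.5, adjusted p = 0.00176), all by DESeq2. It did not pass in zinc-Dex against water-Dex (log2 0.76, adjusted p = 0.497, DESeq2). Its counts were far below those of *Mt2* in every treated mouse, and adding them to *Mt2* left the zinc effect at 5.37 and the interaction at -4.67. Reads that fall on both genes may be in neither count, so adding the counts cannot show how many were lost. Nor can it be told whether reads counted for *Gm45774* came from *Mt2*. *Mt1* and *Mt2* could be told apart by sequence, since the longest run shared by their main transcripts was 20 bases.

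Of 8 genes other than the members that start within 100 kb of *Mt1*, 4 averaged 10 normalized counts or more, and *Gm45774* was the only gene of the 8 that was called in any comparison. The others of these 4 were *Bbs2*, *Nup93* and *Rpl10-ps5*, with zinc differences in PBS-injected mice of 0.13, -0.18 and 0.17. The share of all genes called ran from 0.0191% for the interaction to 11.2% in zinc-Dex against water-PBS. Near *Mtf1*, 13 other genes start within 100 kb of which 5 had 0 counts throughout and 4 averaged 10 normalized counts or more. In either zinc comparison 0 of the 13 were called. Of all genes 0.138% and 0.469% were called there, so this 0 does not set them apart. *Yrdc* was called higher with Dex, at 0.90 on plain water and 0.82 on zinc, beside 9.68% of all genes called in each. *1110065P20Rik*, which overlaps 8.09% of the *Mtf1* exon bases on the other strand, was called lower in zinc-Dex than in water-PBS (log2 -0.80, adjusted p = 0.0264, DESeq2).

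Of 9 other reported targets of MTF1, 8 were tested. In zinc-PBS against water-PBS 0 of them were called, where 0.138% of all genes were, so the count does not set them apart. Their median log2 difference there was 0.16 beside -0.001 over all genes tested. In zinc-Dex against water-Dex the median was -0.34 beside 0.002 over all genes tested. *Slc30a1*, the exporter that carries zinc out of the cytosol, was 555 in water-PBS and 904 in zinc-PBS (means of normalized counts), a log2 fold change of 0.70 that passed the adjusted p (4.3e-05, DESeq2) but not the fold threshold. In Dex-injected mice zinc raised *Slc30a1* by 0.81 on the log2 scale (422 against 240, adjusted p = 3.8e-06, DESeq2). It was the 1 target called there of 8 tested, beside 0.469% of all genes. The difference between these zinc effects, the interaction, was 0.11 ± 0.187 (SE, adjusted p = 0.999). Dex lowered *Slc30a1*, by -1.21 on plain water and -1.10 on zinc, the direction opposite to that of the metallothionein genes. *Gclc*, the catalytic subunit of glutamate cysteine ligase, which starts glutathione synthesis, differed by -0.50 in PBS-injected and -0.60 in Dex-injected mice with adjusted p of 0.00283 and 3.1e-05, under the fold threshold. *Slc39a10*, a zinc importer that MTF1 is known to repress, differed by -0.76 (adjusted p = 0.324). *Ndrg1*, a stress-responsive gene, was called higher with Dex (1.08 on plain water, 1.19 on zinc), beside 9.68% of all genes called in each.

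**Figure D5:**
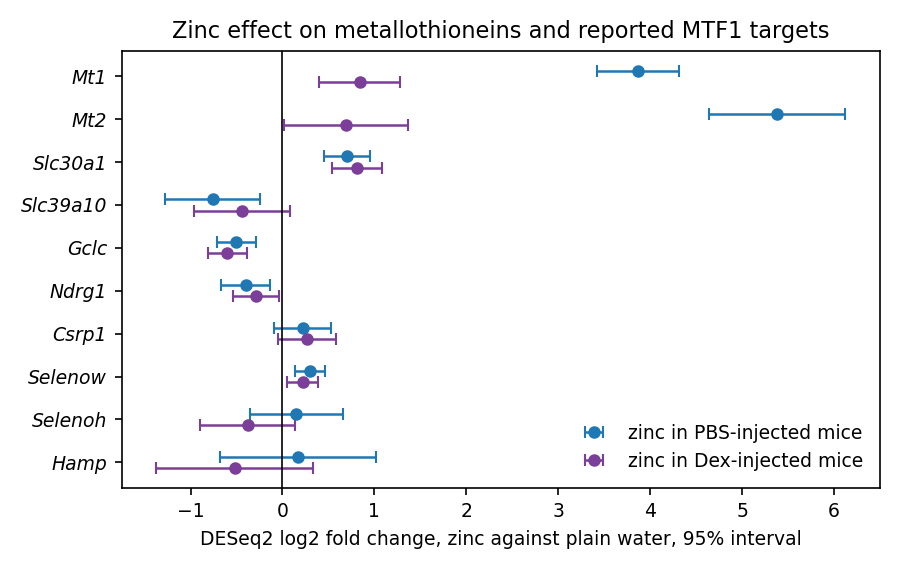
DESeq2 log2 fold change of zinc against plain water (horizontal axis, 95% intervals) in PBS-injected and in Dex-injected mice for *Mt1*, *Mt2* and the listed MTF1 targets that averaged 10 normalized counts or more. The zinc effect of *Mt1* and *Mt2* differs between the 2 settings, while that of *Slc30a1* is 0.70 and 0.81.

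Of 24 zinc transporter genes, 19 were tested with zinc in PBS-injected mice. The importer *Slc39a4* was the only one called, where 0.138% of all genes were. It fell by 1.5 on the log2 scale, from a mean of 666.5 to 235.7 normalized counts (adjusted p = 7.2e-19, DESeq2), and in Dex-injected mice it fell by 1.54. With Dex on plain water, *Slc39a14*, a zinc and iron importer of hepatocytes, was called higher (0.84) and *Slc30a1* lower, of 20 tested and beside 9.68% of all genes. In zinc-Dex against water-PBS, 2 of 20 transporters tested were called higher, with *Slc39a5* the larger at 1.30, and 2 lower, with *Slc39a4* at -1.64. Of all genes 11.2% were called there. In zinc-Dex against zinc-PBS 1 of 21 tested was higher, *Slc39a14* at 0.82, and 1 lower, *Slc30a1*, beside 9.68% of all genes. For the interaction 0 of 24 were called, beside 0.0191% of all genes. Of 10 genes that handle copper, 0 were called in either zinc comparison, beside 0.138% and 0.469% of all genes. *Atp7a*, a copper pump, was the 1 of 10 called with Dex, on plain water (0.97) and on zinc (0.88), beside 9.68% of all genes in each.

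The lists of Dex-responsive genes give the setting of the metallothionein response. Of 10 glucocorticoid receptor genes, the receptor gene *Nr3c1* and 9 of its liver targets, 9 were called higher with Dex on plain water and 8 on zinc, with median log2 differences of 2.39 and 2.56 beside -0.011 over all genes tested. The largest was that of *Ddit4*, an inhibitor of mTORC1 signalling, at 5.11 and 5.67. Dex called 9.68% of all genes in each setting. Zinc called 0 of these 10 in either setting and 0 had an interaction, beside 0.138%, 0.469% and 0.0191% of all genes, so these zeros do not set the list apart. *Mt1* at 4.44 and *Mt2* at 6.42 on plain water are values of the same comparison. Of 12 acute phase genes 10 were tested, and 0 were called with zinc in either setting, again beside 0.138% and 0.469% of all genes. With Dex on plain water, where 9.68% of all genes were called, 3 were called higher, led by *Lcn2*, an iron-scavenging protein, at 4.51, and 1 lower, *Socs3*, the feedback inhibitor of cytokine signalling, at -2.76. Of 3 coactivator and partner genes of MTF1, *Ep300* was called higher with Dex (1.17 on plain water, 1.30 on zinc), and *Crebbp* and *Sp1* were not called. These lists were described by counts and no set test was run on them.

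Other cell types are present in whole liver, and in such samples fewer cells of a type and less RNA per cell cannot be told apart. The summed level of 6 lymphocyte markers was 33.0 to 60.5 normalized counts in PBS-injected mice and 17.0 to 27.2 in Dex-injected mice. The 5 stellate cell markers summed to 5141 to 5627 in PBS-injected and 5838 to 6889 in Dex-injected mice. Neither list had a gene at 0 in all libraries. In Dex-injected mice the mean per lymphocyte marker lay near 3 counts, the level taken here as the floor. The share of all genes that separated PBS-injected from Dex-injected mice in this way was not computed. The hepatocyte sum, which includes the Dex-induced gene *Tat*, was 1259068 to 1474384 in PBS-injected and 1690325 to 1869441 in Dex-injected mice. *Tat* means were 9502 in water-PBS, 6914 in zinc-PBS, 62751 in water-Dex and 72936 in zinc-Dex, a smaller gap than that of the sums. Zinc-PBS and water-PBS overlapped in the lymphocyte sums (40.2 to 60.5 against 33.0 to 48.2) and not in the stellate sums (5141 to 5153 against 5436 to 5627). The part of these shifts in the effects on *Mt1* and *Mt2* was not tested. The sums for Kupffer cells (3846 to 5503), sinusoidal endothelium (3230 to 3625), cholangiocytes (588 to 1164), gut epithelium (590 to 831) and red blood cells (779 to 2135) overlapped between PBS-injected and Dex-injected mice. Of 7 acinar markers of the pancreas, *Prss2*, *Cpa1* and *Pnlip* were at 0 in every library, and the sum was 2.72 to 11.1.

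Across the 12 libraries the gene most like *Mt1* was *Mt2*, with a Pearson correlation of log2 normalized counts of 0.996 among the 9574 genes that averaged 50 normalized counts or more. Next to *Mt1* came *Leng1* (0.936), the transcription factor genes *Klf13* (0.931) and *Hivep2* (0.926), and *Rps4x* (0.917), a ribosomal protein. Next to *Mt2* came *Klf13* (0.941), *Leng1* (0.937), *Hivep2* (0.926) and *Lbp* (0.915), the lipopolysaccharide binding protein made by hepatocytes. All of these were higher in zinc-PBS than in water-PBS as means, by 0.14 to 0.77 on the log2 scale, far less than the metallothionein genes. Most like *Mtf1* were *Pde12* (0.944), *Gba2* (0.935), *Psmd4* (0.921), *Skp1a* (0.917) and *Tsku* (0.908), whose highest mean was in water-Dex in each case. *Mtf1* itself had a correlation of 0.324 with *Mt1* and 0.342 with *Mt2*, place 3359 and place 3254 among these genes. The libraries fall into 4 treated groups, so these values describe shared group patterns and carry no p.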

How the data were processed

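The authors trimmed single-end reads of stranded TruSeq libraries, aligned them to mouse mm10 with HISAT2 2.0.4 and counted them per gene with featureCounts, and the deposited table holds raw counts without normalization. The strand setting and annotation release were not given in the sources used here. Symbols from GENCODE M21 matched 54809 of 54838 gene identifiers, and every sample column was used. Counts were fitted with DESeq2 1.42.0 in R 4.3.3, following the study's methods, with all 12 libraries fitted together and a coefficient for each of the 4 groups, by Wald tests with unshrunken log2 fold changes and Benjamini-Hochberg adjustment over all genes. The fits were tested on simulated data. The members and gene lists were chosen with earlier results of these data known. The genes named are the 3 members, *Mt3* and *Mt4*, overlapping genes, called genes within 100 kb, the 5 genes most correlated with each member, and in each list those called with zinc or for the interaction and the largest called change otherwise. *Gclc*, *Slc39a10*, *Saa1*, *Nr3c1*, *Crebbp*, *Sp1*, *Bbs2*, *Nup93* and *Rpl10-ps5* were named outside this rule after their values were seen. Alternatives were edgeR 4.0.16, TMM factors, a filter of 10 counts in 3 libraries, no independent filtering, no Cook's distance filter, no fold threshold, only the groups compared, a replicate block, antisense counts added, 1 count added to both genes of the ratio, scaling by library totals, and leaving out each library in turn. Counting error of the low counts adds to the spread between mice, and a gene with 3 counts or fewer in a library was taken as at the floor.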

Additional observations from a re-analysis of the deposited data

Results flagged for a closer look

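The zinc effect on *Mt1* and *Mt2* differed between Dex-injected and PBS-injected mice, by a test of the difference itself. For *Mt1* the log2 effect of zinc was 0.84 with Dex and 3.87 without, an interaction of -3.03. For *Mt2* it was 0.69 with Dex and 5.38 without, an interaction of -4.69. Both hold on the scale of folds, while in normalized counts zinc added 6015.2 with Dex and 4757.5 without for *Mt1*, and 1474.2 and 1140.9 for *Mt2*.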

How the results depend on the processing

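For *Mt1* and *Mt2*, the effects of zinc, of Dex and of both against water-PBS, the Dex effect on zinc and the interaction kept their direction and call under every alternative run. The ranges of the zinc-PBS log2 fold change were 3.61 to 4.09 for *Mt1* and 5.05 to 5.92 for *Mt2*, and those of the interaction -3.25 to -2.77 and -5.22 to -4.36. The *Mt1* call in zinc-Dex against water-Dex was lost with edgeR (0.84, adjusted p = 0.13), with TMM factors (0.84, adjusted p = 0.104) and in 9 of 12 fits that left out a library, with a range of 0.76 to 0.91 and an adjusted p of up to 0.473 without zinc-Dex replicate 1. The replicate block also ended that call (0.85, adjusted p = 0.274), and it changed no other call of the members. With only the libraries compared, the adjusted p was 1.5e-14 for *Mt1* and 2.8e-08 for *Mt2*, the latter under the fold threshold. The replicate numbers do not pair the mice, since the correlations of same-numbered libraries lay between -0.204 and 0.191. *Mtf1* with Dex passed without the fold threshold (0.36, adjusted p = 0.0219), but its adjusted p was 0.05 or more in 8 of 21 alternatives (up to 0.155). *Mtf1* in zinc-Dex against water-PBS turned to -0.021 when antisense counts were added, and its interaction ranged from -0.152 to 0.008 on leaving out a library, turning only without water-PBS replicate 1, and none of these passed. The cause of the lost and turned calls was not tested. The Dex difference of the *Mt2* to *Mt1* ratio passed in all alternatives (1.12 to 1.35) and the zinc difference in none (0.63 to 0.86). Calls summed over the lists and comparisons were 70, and 72 with edgeR. The excess over the sum of single effects ranged from 418 to 1861 for *Mt1*, 99.1 to 521 for *Mt2* and -29.3 to -5.95 for *Mtf1* on leaving out a library. Calls over all genes moved in zinc-PBS against water-PBS from 17 to 9 with edgeR and 42 without the fold threshold (11 to 38 on leaving out a library), in zinc-Dex against water-Dex from 60 to 21 and 173 (26 to 101), and for the interaction from 5 to 3 with edgeR and 8 with the block (up to 23). Without the fold threshold 3067, 3475 and 3145 genes passed in water-Dex and zinc-Dex against water-PBS and in zinc-Dex against zinc-PBS. Depth limits *Mt2* in water-PBS, with 13 to 49 counts per library.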
